A study of Arabidopsis thaliana with 32 samples.

Results

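The beta-tubulins of Arabidopsis thaliana were followed in RNA sequencing of whole seedlings. The genes were taken by their identifiers: TUB1 (AT1G75780), TUB2 (AT5G62690), TUB3 (AT5G62700), TUB4 (AT5G44340), TUB5 (AT1G20010), TUB6 (AT5G12250), TUB7 (AT2G29550), TUB8 (AT5G23860) and TUB9 (AT4G20890). All 9 were found among the 19685 genes of the deposited expression table, and all 9 passed the filter on low values. The rule uses identifiers and no measured value, but the genes were chosen with earlier results of these data known. The 32 libraries form 12 groups of 5 genotypes, 8 groups with 3 libraries and 4 with 2, and each library was made from a pool of about 40 seedlings. The line OX carries 35S:FLASH-HY5, which is a tagged HY5 protein made under the viral 35S promoter. The line VP16 carries 35S:FLASH-HY5-VP16, in which that protein is fused to an activation domain, and the line SRDX carries 35S:FLASH-HY5-SRDX, in which it is fused to a repression domain. All 3 lines are in the hy5/hy5 mutant background, and hy5/hy5 itself and Col-0, the wild type of the Columbia ecotype, complete the set. The 35S promoter is active in most cells, so that these lines do not show where HY5 itself is made. Which hy5 allele was used, and how many independent transformants a line stands for, is not given in the labels. Every seed batch received 1 h of white light to start germination and then 3 days of darkness. Dark groups were harvested at that point, and light groups after a further 1.5 h or 4 h of white light at 100 µmol per square metre per second. Dark and 1.5 h groups held 3 libraries in OX, VP16, hy5 and Col and 2 in SRDX. After 4 h there were 2 libraries of SRDX and 2 of hy5, and none of the other genotypes.

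Beta-tubulin pairs with alpha-tubulin, and these dimers stack into the hollow filaments called microtubules. In growing plant cells the microtubules under the plasma membrane guide the enzymes that lay down cellulose, and so help to set the direction in which a cell elongates. A seedling in the dark elongates its hypocotyl fast, and light brakes that growth and starts leaf development. HY5 is a bZIP transcription factor that acts downstream of the photoreceptors and binds DNA at ACGT cores, among them the G-box CACGTG.

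The 9 genes encode proteins of 444 to 450 residues, and each gene has an annotated mRNA of 1797 to 2180 bases. TUB2 and TUB3 differ from the other members in how close they are to each other. They lie in tandem on chromosome 5 (TUB2 at chr5:25181296-25183811 and TUB3 at chr5:25184258-25186777, both on the plus strand, TAIR10.1, RefSeq), with 446 bases between the end of one and the start of the other. Their coding sequences differ at 32 of 1353 bases and all 32 differences keep the residue, so the encoded proteins are identical. The longest identical run of coding sequence is 227 bases. Bases 508 to 567 of both coding sequences, counted from the start codon, are shown because they hold 4 of the differences, which are in capitals:
TUB2: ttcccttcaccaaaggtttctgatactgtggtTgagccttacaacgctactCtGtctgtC
TUB3: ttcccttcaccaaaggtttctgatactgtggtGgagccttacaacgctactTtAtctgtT
Among all 50-base windows of the mRNA, 22.3% of those of TUB2 and 22.0% of those of TUB3 are identical in the other gene, and among 100-base windows the shares are 11.3% and 11.2%. For the other members, at most 0.235% of 50-base windows and no 100-base window are identical to one in another member. The remaining 35 pairs of coding sequences are 78.7 to 87.4% identical. The separate levels of TUB2 and TUB3 are therefore uncertain, since how the authors' counting treated reads that fit both genes is not given in the sources used here, and their sum is given beside them.

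The libraries held 7499581 to 21420680 reads in genes, and 1 read corresponds to 0.0457 to 0.131 CPM, so that reads per beta-tubulin and library did not go below 818. HY5, the manipulated gene, averaged 14279 ± 2366 CPM in dark OX, 2338 ± 350.4 in dark VP16 and 1026 ± 79.7 in dark SRDX, against 21.7 ± 2.52 in dark hy5 and 24.6 ± 4.68 in dark Col (SD, n = 3, and n = 2 for SRDX). At 1.5 h of light it stood at 25.1 ± 0.0243 CPM in hy5, against 216 ± 14.2 in Col (SD, n = 3 each). HY5 transcript differed between hy5 and Col in light (adjusted p = 1.84e-17) and was not called in the dark (adjusted p = 0.568). At 4 h of light HY5 measured 908 and 925 CPM in SRDX, against 85.4 and 79.1 in hy5, and HY5 transcript in the hy5 line was higher at 4 h than in the dark by 1.88 ± 0.14 on the log2 scale and than at 1.5 h by 1.67 ± 0.14 (SE, adjusted p = 2.34e-12 and 4.16e-10). The log2 difference of SRDX from hy5 in HY5 transcript was 5.50 in darkness, 4.91 after 1.5 h of light and 3.46 after 4 h. PORA, a chlorophyll-synthesis gene that marks dark-grown shoots, averaged 229 to 501 CPM over the 1.5 h groups and 1170.0 to 1857 over the dark groups, in the direction of the light labels. Here and below the adjusted p comes from limma on log2(CPM + 1), with Benjamini-Hochberg adjustment over all genes of a comparison, and a gene is called where it is below 0.05. The labels do not say that replicates were separate cultures, so p-values measure the spread between these libraries, which may be technical.

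All 9 beta-tubulins were detected in all 32 libraries. Scaled to mRNA length, TUB4 had the highest group mean of the family in each of the 12 groups, with 256 CPM per kb in hy5 at 4 h as its lowest and 414 in dark OX as its highest. TUB7 had the lowest per-length mean in 4 of the 5 dark groups, with 55.5 CPM per kb in SRDX to 65.8 in hy5. In dark VP16 the lowest was TUB1, with 61.0 CPM per kb against 67.6 for TUB7. Over the 12 group means, TUB1 ranged 3.36-fold, TUB8 3.19-fold and TUB5 2.73-fold, whereas TUB3 ranged 1.40-fold and TUB2 1.58-fold. In CPM, TUB4 had group means between 459 in hy5 at 4 h and 745 in dark OX, and TUB6 between 276 and 553 in the same groups. TUB2 lay between 236 in SRDX at 1.5 h and 372 in dark OX, TUB3 between 302 in SRDX at 1.5 h and 424 in SRDX at 4 h, and TUB9 between 136 in VP16 at 1.5 h and 222 in dark Col.

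**Figure D1:**
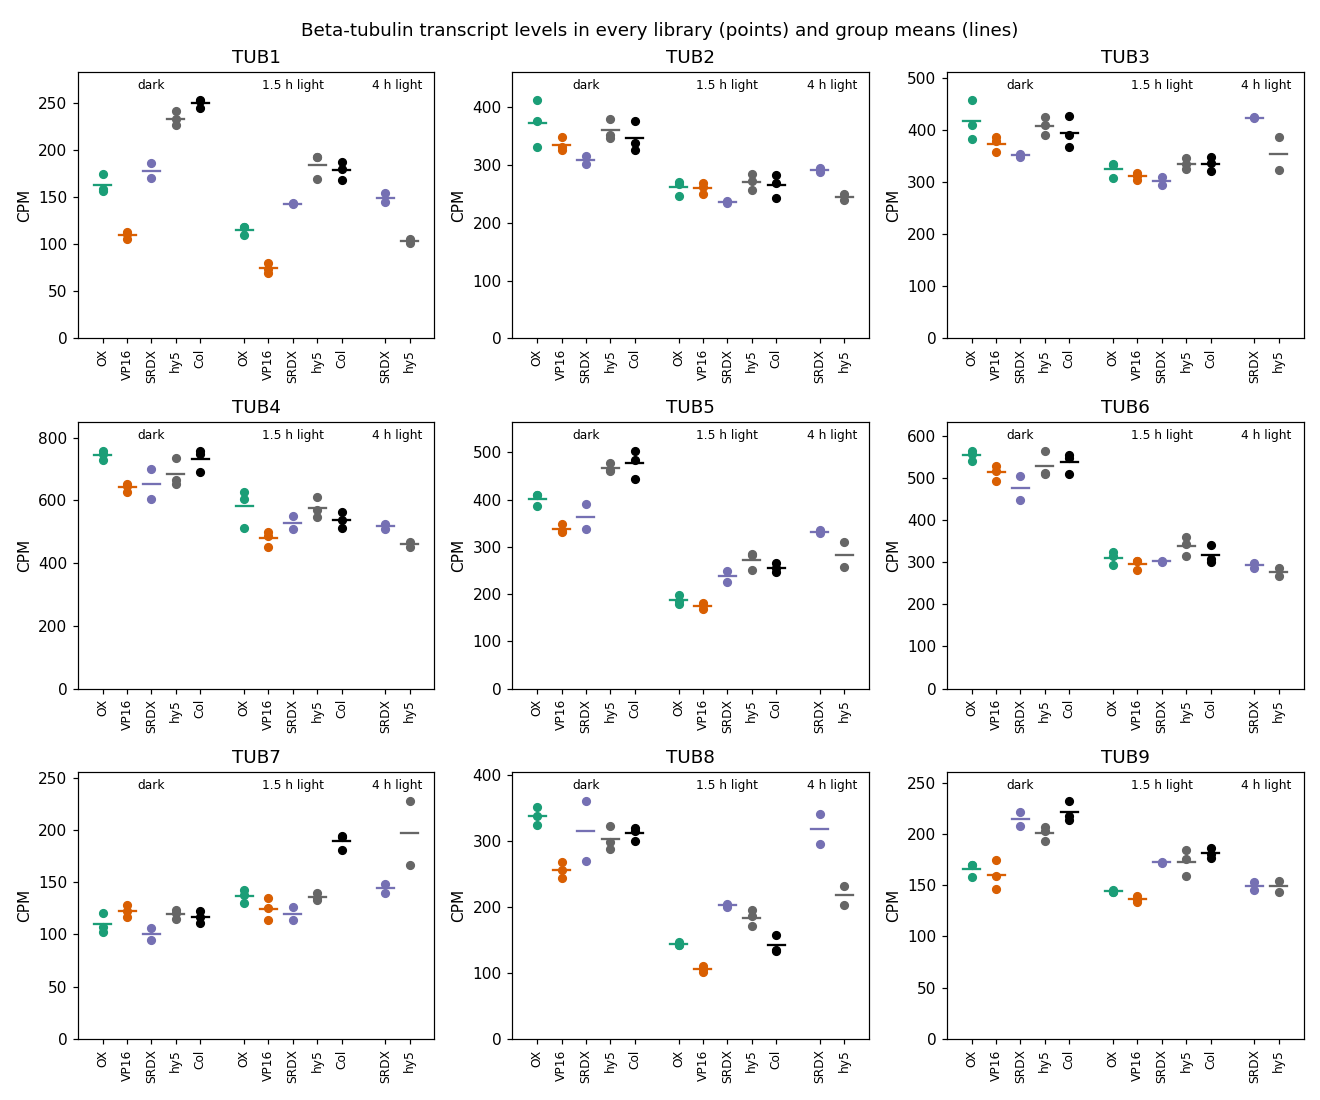
Level of each beta-tubulin in CPM (vertical axes, from 0) in every library (points), with group means as lines, for 5 genotypes in the dark and at 1.5 h of light and for SRDX and hy5 at 4 h. TUB1 is lower in the dark in OX (157 to 175 CPM), VP16 (106 to 113) and SRDX (171 to 186) than in hy5 (226 to 241), and TUB7 has its highest mean, 197 CPM, in hy5 at 4 h.

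Most of the family was lower at 1.5 h of light than in the dark, in all 5 genotypes. No group was kept in the dark for the further 1.5 h or 4 h. Light therefore cannot be told apart from the later harvest in any comparison between these times. Of the 9 members, 8 fell in OX, 8 in VP16, 7 in SRDX, 8 in hy5 and 8 in Col, and TUB7 rose in OX and in Col. Of all 19685 genes, 22.6% fell in OX, 22.1% in VP16, 12.7% in SRDX, 15.7% in hy5 and 17.9% in Col, and 23.6% rose in OX and 18.0% in Col. The median log2 difference of the 9 members was -0.50 in OX, -0.42 in VP16, -0.32 in SRDX, -0.34 in hy5 and -0.45 in Col, and the median over all genes was between -0.022 and 0.0054. These are pools of whole seedlings, in which fewer cells of a type and less RNA per cell cannot be told apart.

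TUB8, TUB5 and TUB6 fell most. In Col, TUB8 measured 157, 135 and 133 CPM at 1.5 h of light, against 301, 319 and 316 CPM in the dark. In OX it measured 142, 146 and 142 CPM in light, against 324, 352 and 339 in the dark, and in VP16 109.9, 102 and 106 in light, against 269, 256 and 244. In hy5 it measured 195, 186 and 170.3 CPM in light, against 299, 287 and 322 in the dark. In all 4 of these genotypes every light library was below every dark library. The log2 difference of TUB8, light minus dark, was -1.23 ± 0.091 in OX, -1.27 ± 0.091 in VP16, -0.72 ± 0.091 in hy5 and -1.14 ± 0.091 in Col (SE, adjusted p = 2.01e-12, 1.25e-12, 2.19e-07 and 1.66e-11 in that order). In SRDX, TUB8 measured 205 and 200.0 CPM in light, against 269.5 and 361 in the dark, and the difference was -0.62 ± 0.11 (SE, n = 2 each, adjusted p = 8.06e-05). The dark SRDX libraries lay far apart for this gene: without dark SRDX replicate 2 the difference was -0.41, and without replicate 1 it was -0.83.

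TUB5 averaged 187 ± 9.40 CPM in OX at 1.5 h of light, against 403 ± 13.1 in the dark (SD, n = 3 each), a ratio of 0.465. In VP16 the ratio of light to dark was 0.519, in SRDX 0.652, in hy5 0.584 and in Col 0.536. TUB6 kept to a narrower band, with ratios of 0.562 in OX, 0.577 in VP16, 0.634 in SRDX, 0.642 in hy5 and 0.589 in Col. For both genes the light and dark libraries did not overlap in any genotype. The same held for 8 of the 9 members in VP16 and for all 9 in OX, SRDX, hy5 and Col. The share of all genes without overlap was not counted, so these counts do not set the family apart. In dark SRDX against dark hy5, for example, 7 members did not overlap and 2 were called. The largest of the 10 adjusted p-values of TUB5 and TUB6 was 1.73e-05, for TUB5 in SRDX. Both genes were also called in all 5 genotypes with each library left out in turn.

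**Figure D2:**
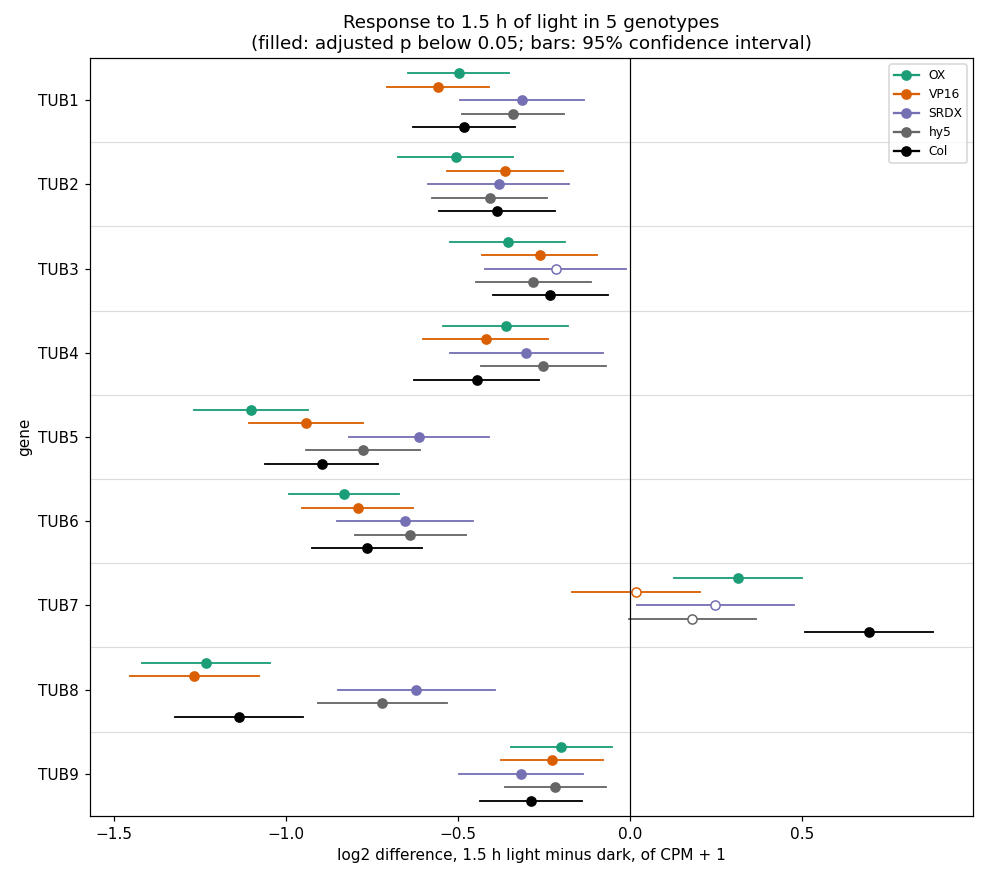
Difference on the log2(CPM + 1) scale, 1.5 h of light minus dark (horizontal axis), for each beta-tubulin (vertical axis) in 5 genotypes, with 95% confidence intervals and filled points where the adjusted p was below 0.05. TUB5, TUB6 and TUB8 lie furthest to the left in every genotype, and TUB7 lies to the right of 0, at 0.70 in Col and 0.018 in VP16.

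TUB1, TUB2, TUB3, TUB4 and TUB9 had smaller differences in light, between -0.56 for TUB1 in VP16 and -0.20 for TUB9 in OX. TUB2 fell in all 5 genotypes, by 0.36 to 0.51 on the log2 scale. TUB3 fell in OX (-0.36 ± 0.082), VP16 (-0.26 ± 0.082), hy5 (-0.28 ± 0.082) and Col (-0.23 ± 0.082), and in SRDX the difference was -0.22 ± 0.10 (SE, adjusted p = 0.114). The calls of the smallest falls depended on which libraries were kept. TUB9 in OX lost its call without dark replicate 2 or 3 or light replicate 2 or 3 (adjusted p = 0.0746, 0.0685, 0.0544 and 0.0553), and in VP16 without dark replicate 1 (0.0979). In hy5, TUB9 lost its call without dark replicate 2 or 3 or light replicate 1 (0.0773, 0.0587 and 0.157), and TUB4 without dark replicate 3 or light replicate 1 or 3 (0.14, 0.121 and 0.0722). In SRDX, TUB1 lost its call without dark replicate 1 (0.0918), and TUB9 without dark replicate 2 or light replicate 1 (0.0838 and 0.0522). TUB4 in SRDX lost it without dark replicate 2, light replicate 1 or light replicate 2 (0.34, 0.244 and 0.0615), and its difference of -0.30 was -0.20 without the first of them. TUB3 in Col lost it without dark replicate 3 or light replicate 1 or 2 (0.146, 0.0529 and 0.104). With the spread taken from the compared groups alone, TUB9 lost its call in OX, VP16 and SRDX (adjusted p = 0.121, 0.0679 and 0.0537), TUB1 and TUB4 theirs in SRDX (0.0556 and 0.137) and TUB3 its call in Col (0.0824). With median-of-ratios scaling TUB4 in SRDX and TUB3 in Col were not called (adjusted p = 0.0503 and 0.0521).

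In each genotype most or all markers of the etiolated shoot fell with the same light step. EXPA8 was the marker not called in SRDX and hy5 (0.53 ± 0.24 and -0.044 ± 0.20, SE). Of the 3 markers, 3 fell in OX, VP16 and Col and 2 fell in SRDX and hy5, where 12.7 to 22.6% of all genes fell, and their summed level at 1.5 h was 297 to 364 CPM in OX, 426 to 512 in VP16, 503 to 528 in SRDX, 565 to 779 in hy5 and 504 to 591 in Col. In the dark the sum lay between 1180.3 CPM, in OX, and 2152 CPM, in hy5. Most of that dark sum came from PORA, whose group means are given above. No marker was at 0 in any library. Their part in the fall of the beta-tubulins was not tested.

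TUB7 differed from the other members in direction. It measured 194, 193 and 181 CPM in Col at 1.5 h of light, against 122, 116 and 111 in the dark. In hy5 it measured 135, 139.8 and 133 CPM in light, against 123, 115 and 121 in the dark. The Col light libraries stood clear of the dark ones, and in hy5 the gap between light and dark was much smaller. TUB7 rose in Col by 0.70 ± 0.091 on the log2 scale (SE, adjusted p = 2.89e-07) and in OX by 0.32 ± 0.091 (adjusted p = 0.00508). The difference was 0.25 ± 0.11 in SRDX, 0.18 ± 0.091 in hy5 and 0.018 ± 0.091 in VP16, and none of the 3 was called (adjusted p = 0.101, 0.134 and 0.896). The 300 bases before the annotated start of TUB7 are shown because they hold the family's only CACGTG in such a window (chr2:12646058-12646357, minus strand, TAIR10.1, RefSeq). Capitals mark ACGTG on either strand, and where 2 such matches overlap they spell CACGTG, which occurs here 280 and 234 bases before the start:
TUB7 promoter: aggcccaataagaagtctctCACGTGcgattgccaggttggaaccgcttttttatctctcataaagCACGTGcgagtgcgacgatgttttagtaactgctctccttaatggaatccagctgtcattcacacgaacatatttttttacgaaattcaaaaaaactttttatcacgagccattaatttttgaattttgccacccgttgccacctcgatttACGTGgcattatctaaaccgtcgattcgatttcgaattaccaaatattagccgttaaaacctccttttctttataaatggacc
The same window of TUB8, the member that fell most in OX, VP16 and Col, holds 1 ACGTG match, on the opposite strand (chr5:8042553-8042852, plus strand):
TUB8 promoter: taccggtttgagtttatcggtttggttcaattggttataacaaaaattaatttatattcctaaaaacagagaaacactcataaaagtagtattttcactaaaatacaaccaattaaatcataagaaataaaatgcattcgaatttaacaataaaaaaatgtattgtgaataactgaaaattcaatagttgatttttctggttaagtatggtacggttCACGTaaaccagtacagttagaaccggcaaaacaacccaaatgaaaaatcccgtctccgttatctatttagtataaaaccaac
The window of TUB1 holds none (chr1:28453821-28454120, minus strand), and it is shown because TUB1 differed most between the HY5 lines and hy5:
TUB1 promoter: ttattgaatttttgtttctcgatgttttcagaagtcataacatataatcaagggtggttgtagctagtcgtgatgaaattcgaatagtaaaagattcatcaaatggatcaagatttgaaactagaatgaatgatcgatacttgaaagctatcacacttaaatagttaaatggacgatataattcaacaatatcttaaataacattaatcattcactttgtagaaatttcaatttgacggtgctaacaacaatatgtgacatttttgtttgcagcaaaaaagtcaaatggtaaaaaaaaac
Of the 9 windows, 1 holds CACGTG, 6 hold ACGTG and 6 hold ACGT, searched on both strands, and all ACGTG matches also count as ACGT. Of 27443 windows of the same length before other annotated genes and these, 7.09% hold CACGTG, 25.6% ACGTG and 49.0% ACGT. TUB1, TUB4 and TUB9 hold none of the 3 motifs in this window. A match describes letters in the sequence and is no measure of binding.

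Whether the change from dark to light differed between genotypes was tested as the difference between 2 light responses. TUB8 fell further in OX than in hy5, with a difference of -0.51 ± 0.13 between the responses (SE, 95% interval -0.78 to -0.25, adjusted p = 0.0077), where 4.73% of all genes had a more negative response in OX, and it was the 1 member called. It also fell further in VP16 than in hy5, with a difference of -0.55 ± 0.13 (95% interval -0.81 to -0.28, adjusted p = 0.00501), again as the 1 member called, where 3.47% of all genes had a more negative response in VP16. Between hy5 and Col the 1 member called was TUB7, whose response was smaller in hy5, with a difference of -0.51 ± 0.13 (95% interval -0.78 to -0.25, adjusted p = 0.0137), where 2.90% of all genes had a more negative response in hy5. TUB8 differed there by 0.42 ± 0.13, which was not called (adjusted p = 0.0689), and it was called without Col light replicate 1 (0.0272) and in DESeq2 on the recovered reads (adjusted p = 0.0443). Between SRDX and hy5 no member was called at 1.5 h, where 0.127% of all genes were, no member had an unadjusted p below 0.05, and edgeR and DESeq2 also called none. The interval for TUB8 there was -0.20 to 0.39. The response of TUB5 in OX minus that in hy5 was -0.33 ± 0.11, which was not called (adjusted p = 0.067), and it was called without hy5 light replicate 1 (0.0431) and in DESeq2 (adjusted p = 0.025). These comparisons share the hy5 libraries.

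SRDX and hy5 were followed to 4 h of light. In SRDX, TUB1 averaged 178 CPM in darkness, 143 after 1.5 h of light and 149.6 after 4 h, whereas in hy5 it stood at 234, 185 and 104 CPM at those times. Of the 9 members, 4 rose in SRDX after 1.5 h and none was called lower, where 10.8% of all genes rose. In hy5 over the same interval 1 member rose and 4 fell, where 13.0% of all genes rose and 12.7% fell. The difference between these changes of SRDX and hy5 after 1.5 h was not tested itself. Against the dark, 2 members were higher and 4 lower in SRDX at 4 h, where 23.1% of all genes were higher and 23.6% lower. In hy5 at 4 h, 1 member was higher than in the dark and 7 were lower, where 24.5% of all genes were higher and 26.3% lower.

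TUB8, TUB3, TUB5 and TUB2 were the members that rose in SRDX after 1.5 h. TUB8 measured 341 and 295 CPM at 4 h, against 205 and 200.0 at 1.5 h, and TUB5 335 and 329, against 248 and 227. TUB3 measured 424 and 424 CPM at 4 h, against 309.8 and 295 at 1.5 h. In each of these 3 genes the 4 h libraries lay above the 1.5 h libraries. The same held for TUB2, and also for TUB1 and TUB7, which were not called. The log2 differences were 0.64 ± 0.11 for TUB8, 0.49 ± 0.10 for TUB3, 0.48 ± 0.099 for TUB5 and 0.30 ± 0.10 for TUB2 (SE, n = 2 each, adjusted p = 0.000124, 0.000804, 0.0008 and 0.0311 in limma). TUB2 was not called without any 1 of the 4 libraries (adjusted p = 0.1 without 1.5 h replicate 1, 0.146 without 1.5 h replicate 2, 0.0976 without 4 h replicate 1 and 0.142 without 4 h replicate 2). Relative to the dark, TUB8 in SRDX at 4 h differed by 0.023 ± 0.11, TUB5 by -0.13 ± 0.099 and TUB2 by -0.083 ± 0.10, none of them called (95% interval for TUB8 -0.21 to 0.25). TUB6 and TUB9 were below their dark levels in SRDX at 4 h, with differences of -0.70 ± 0.096 and -0.52 ± 0.088, and TUB7 was above its dark level, with 0.51 ± 0.11. TUB3 was also above its dark level, with 0.27 ± 0.10, and TUB1 and TUB4 were below theirs, with -0.25 ± 0.089 and -0.33 ± 0.11. TUB3 lost this call without any 1 of the 4 libraries (adjusted p = 0.0701 and 0.1 without dark replicates 1 and 2, 0.0912 and 0.0894 without 4 h replicates 1 and 2). TUB1 lost it without dark replicate 1 or 4 h replicate 1 (0.165 and 0.139), and TUB4 without dark replicate 2 or 4 h replicate 2 (0.171 and 0.0734). All 3 lost it with the spread taken from the compared groups alone (adjusted p = 0.0916 for TUB3, 0.0991 for TUB1 and 0.0683 for TUB4). TUB7 at 4 h differed from 1.5 h in SRDX by 0.26 ± 0.11, was not called (adjusted p = 0.0865), and was called with that spread (adjusted p = 0.0402).

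In hy5, TUB1 measured 102 and 106 CPM at 4 h, against 169, 192 and 192 at 1.5 h, with no overlap. The log2 difference between those times was -0.82 ± 0.081 (SE, adjusted p = 9.58e-09), and that between 4 h and the dark was -1.16 ± 0.081 (adjusted p = 5.17e-13). TUB6 at 4 h differed from the dark by -0.93 ± 0.088, TUB5 by -0.72 ± 0.090, TUB4 by -0.57 ± 0.099, TUB2 by -0.56 ± 0.092, TUB8 by -0.47 ± 0.10 and TUB9 by -0.43 ± 0.080, all called. TUB3 differed by -0.21 ± 0.091 and was not called (adjusted p = 0.0605), and it was called without 4 h replicate 1 (0.0155) and with the filter of a mean of at least 5 CPM (adjusted p = 0.0494). TUB7 measured 228 and 167 CPM in hy5 at 4 h, against 135, 139.8 and 133 at 1.5 h and 123, 115 and 121 in the dark. Both 4 h libraries were above all earlier ones, but they lay far apart. TUB7 was 0.70 ± 0.10 above the dark level (adjusted p = 1.06e-06), and 0.52 ± 0.10 above the 1.5 h level (adjusted p = 0.000301). The difference from 1.5 h was 0.30 without 4 h replicate 1 (adjusted p = 0.0765). The smaller differences in hy5 between 1.5 h and 4 h were -0.32 ± 0.099 for TUB4, -0.29 ± 0.088 for TUB6 and -0.21 ± 0.080 for TUB9. TUB4 lost its call without 1.5 h replicate 2 or either 4 h library (0.0701, 0.0698 and 0.0871), and TUB6 without 1.5 h replicate 2 or 4 h replicate 1 (0.0653 and 0.164). TUB9 lost it without 1.5 h replicate 2 or 3 or either 4 h library (0.188, 0.118, 0.326 and 0.0593), in edgeR (adjusted p = 0.0544) and with median-of-ratios scaling (0.0673). With the spread taken from the compared groups alone, TUB4, TUB6 and TUB9 were not called (adjusted p = 0.0656, 0.0735 and 0.154 in limma). TUB8 differed from 1.5 h by 0.24 ± 0.10, was not called (adjusted p = 0.0782), and was called in DESeq2 (adjusted p = 0.0433).

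**Figure D3:**
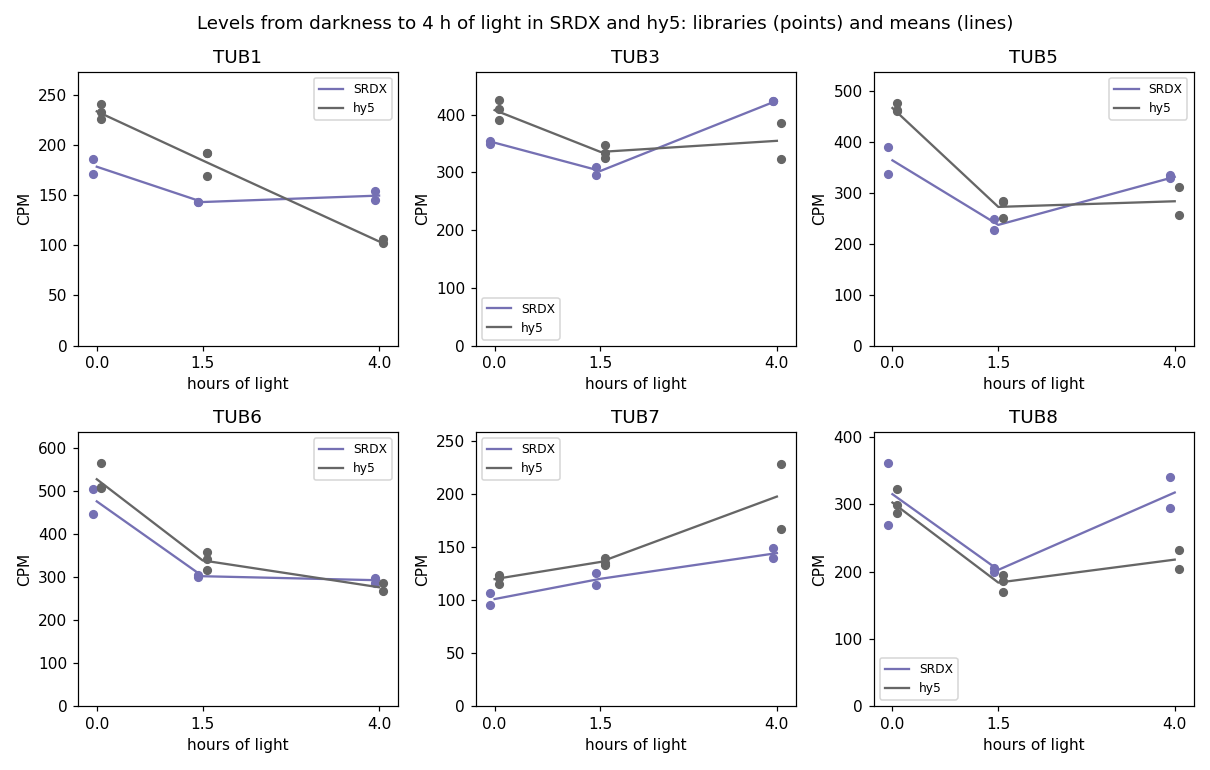
Level in CPM (vertical axes, from 0) of 6 beta-tubulins against hours of light (horizontal axes, 0 being dark) in SRDX and hy5, with libraries as points and means as lines. TUB1 ends at 149.6 CPM in SRDX and at 104 in hy5, and TUB8 at 318 in SRDX and 218 in hy5.

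The 4 h light responses of SRDX and hy5 differed for 5 of the 9 members, where 4.34% of all genes had a more positive response in SRDX. The response was more positive in SRDX by 0.91 ± 0.12 for TUB1 (SE, 95% interval 0.66 to 1.15, adjusted p = 9.84e-06) and by 0.59 ± 0.13 for TUB5 (adjusted p = 0.00467). It was more positive by 0.50 ± 0.15 for TUB8, 0.48 ± 0.14 for TUB3 and 0.47 ± 0.14 for TUB2 (adjusted p = 0.0332, 0.0225 and 0.0239). The TUB1 and TUB5 calls held with each library left out. With the spread taken from the 4 compared groups alone, TUB1 kept its call and TUB5, TUB2, TUB3 and TUB8 did not (adjusted p = 0.0558, 0.075, 0.103 and 0.147 in limma). TUB2 and TUB3 lost theirs without dark hy5 replicate 3 (0.0568 for TUB2 and 0.0501 for TUB3), dark SRDX replicate 2 (0.0806 and 0.0633), 4 h SRDX replicate 1 (0.0588 and 0.066), 4 h SRDX replicate 2 (0.0814 and 0.0669) or 4 h hy5 replicate 2 (0.0682 and 0.129). TUB8 lost its call without dark hy5 replicate 3 (0.0776), 4 h SRDX replicate 1 (0.169) or 4 h hy5 replicate 2 (0.131), and without dark SRDX replicate 1 its value was 0.29 (0.242). At 4 h itself, 3 members differed between SRDX and hy5, where 8.24% of all genes were higher and 9.65% lower in SRDX. The differences were 0.52 ± 0.089 for TUB1, 0.54 ± 0.11 for TUB8 and -0.43 ± 0.11 for TUB7 (adjusted p = 6.58e-05, 0.000705 and 0.00571). TUB7 lost its call with the spread taken from those 2 groups alone (adjusted p = 0.133) and without 4 h SRDX replicate 2 (0.0709), and without 4 h hy5 replicate 1 its difference was -0.21 (0.28). Without that same hy5 library TUB3 and TUB5 were called, with differences of 0.39 and 0.37 (adjusted p = 0.022 and 0.0286), against 0.26 and 0.23 with it. Of the 10 dividing-cell markers, 5 were higher at 4 h than in the dark in SRDX and 6 in hy5, where 23.1% of all genes were higher in SRDX and 24.5% in hy5, with a summed level at 4 h of 104 to 124 CPM in SRDX and 94.0 to 147 in hy5. In the dark the sum was 82.1 to 92.2 CPM in SRDX and 84.2 to 87.4 in hy5, no marker was at 0, and none of the 10 differed between SRDX and hy5 at 4 h. Of the 3 etiolated-shoot markers, PORA and HLS1 were higher in SRDX than in hy5 at 4 h (1.57 ± 0.29 and 0.73 ± 0.22, SE). HLS1 is a regulator of the apical hook. The third marker, EXPA8, was not called (-0.12 ± 0.24), and 8.24% of all genes were higher. Against the dark, PORA and HLS1 were lower at 4 h in both genotypes, where 23.6% of all genes were lower in SRDX and 26.3% in hy5. EXPA8 was higher than in the dark in SRDX (1.03 ± 0.24) and not called in hy5 (0.50 ± 0.22). The summed level of the 3 at 4 h was 321 to 349 CPM in SRDX and 277 to 318 in hy5. Of 7 listed seed storage genes, 5 were measured. Of these, 2 were higher and 1 lower at 4 h than in the dark in SRDX, and 4 were higher in hy5. Of all genes, 23.1% were higher and 23.6% lower in SRDX, and 24.5% were higher in hy5. OLEO1 and OLEO2 rose in SRDX (2.10 ± 0.31 and 4.29 ± 0.62, SE) and in hy5 (1.22 ± 0.28 and 2.23 ± 0.57). CRC was lower in SRDX (-0.89 ± 0.29) and higher in hy5 (0.74 ± 0.26). The summed level of the 5 at 4 h was 53.6 to 62.5 CPM in SRDX and 10.8 to 19.01 in hy5. In the dark it was 12.9 to 14.9 in SRDX and 2.27 to 3.65 in hy5. At 4 h, 3 of the 5 were higher in SRDX than in hy5, where 8.24% of all genes were, and none was at 0 in any library. The part of these 3 lists in the beta-tubulin differences was not tested.

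TUB1 was the beta-tubulin that separated the HY5 lines from hy5 most widely. In the dark it measured 159, 157 and 175 CPM in OX, 113, 106 and 111 in VP16 and 186 and 171 in SRDX, against 241, 233 and 226 in hy5. At 1.5 h of light it measured 118, 109.8 and 119 CPM in OX, 80.0, 69.6 and 73.7 in VP16 and 144 and 143 in SRDX, against 169, 192 and 192 in hy5. Every library of each line was below every hy5 library of the same light, and the VP16 libraries were the lowest at both. The log2 difference from hy5 in the dark was -0.51 ± 0.072 in OX, -1.08 ± 0.072 in VP16 and -0.39 ± 0.081 in SRDX (SE, adjusted p = 1.16e-05, 3.58e-12 and 0.002). At 1.5 h it was -0.67 ± 0.072 in OX, -1.30 ± 0.072 in VP16 and -0.36 ± 0.081 in SRDX (adjusted p = 1.78e-08, 1.23e-14 and 0.00344). The SRDX calls were lost without dark SRDX replicate 2 (adjusted p = 0.0731) and without 1.5 h SRDX replicate 2 (0.0539). By the 4 h point the SRDX libraries stood above those of hy5, as given above. The authors' deposited table, which gives log2 fold changes over hy5, lists TUB1 at -0.51 for OX, -1.09 for VP16 and -0.39 for SRDX in the dark. The light responses of TUB1 to 1.5 h were not called different from that of hy5 in OX (-0.16 ± 0.10), VP16 (-0.22 ± 0.10) or SRDX (0.026 ± 0.11), with 95% intervals of -0.37 to 0.051, -0.43 to -0.0099 and -0.21 to 0.26.

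**Figure D4:**
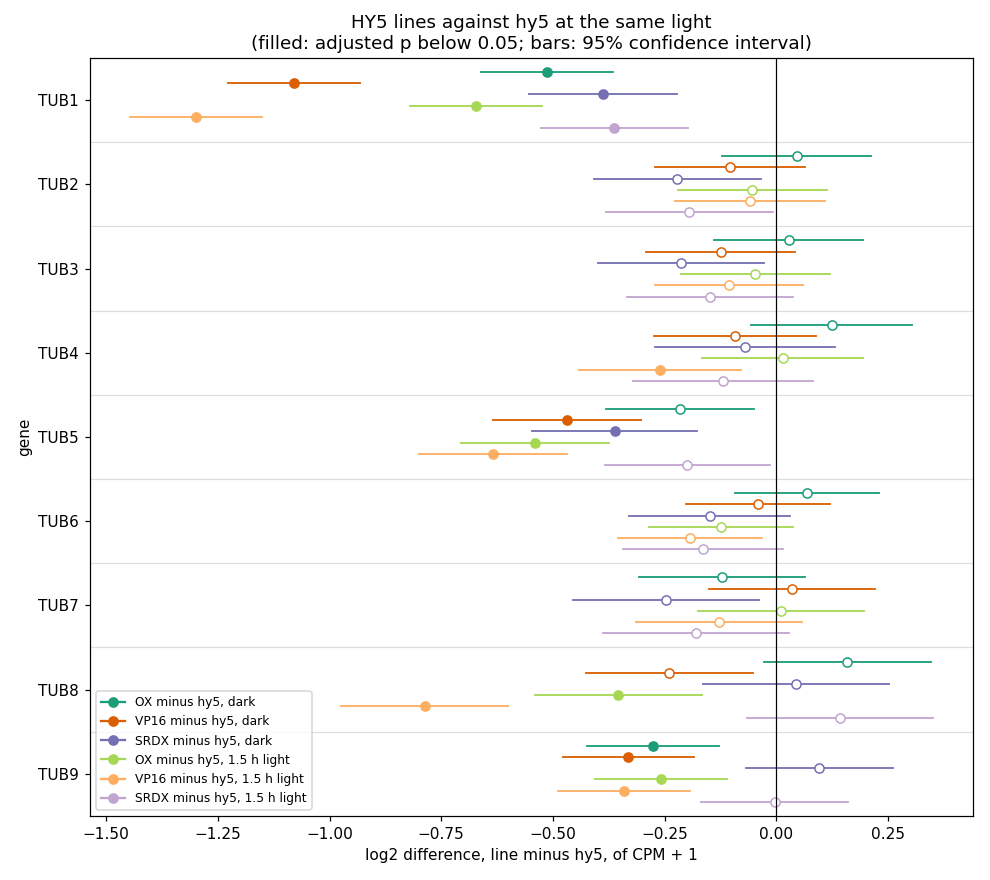
Difference on the log2(CPM + 1) scale of the OX, VP16 and SRDX lines from hy5 (horizontal axis) for each beta-tubulin (vertical axis), in the dark and at 1.5 h of light, with 95% confidence intervals and filled points where the adjusted p was below 0.05. TUB1 in VP16 is furthest to the left, at -1.08 in the dark and -1.30 in light, and TUB2, TUB3, TUB6 and TUB7 have no filled point.

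In the dark, 2 members were lower than in hy5 in OX, 3 in VP16 and 2 in SRDX, and no member was called higher. Of all genes, 6.76% were lower in OX, 11.1% in VP16 and 4.52% in SRDX. Beside TUB1 these were TUB9 in OX (-0.28 ± 0.072), TUB5 and TUB9 in VP16 (-0.47 ± 0.081 and -0.33 ± 0.072) and TUB5 in SRDX (-0.36 ± 0.090). The adjusted p-values were 0.0102, 7.49e-05, 0.00109 and 0.00989, and TUB5 in SRDX was not called without dark SRDX replicate 2 (0.235). With the spread taken from the compared groups alone, TUB9 in OX and TUB5 in SRDX were not called (adjusted p = 0.0598 and 0.0636). TUB5 measured 333, 348 and 332 CPM in dark VP16 and 391 and 338 in dark SRDX, against 463, 461 and 477 in dark hy5. TUB9 measured 159, 170.0 and 169.6 CPM in dark OX and 175, 159 and 146 in dark VP16, against 193, 207 and 204 in dark hy5. None of these groups overlapped with hy5.

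At 1.5 h of light, 4 members were lower than in hy5 in OX, 5 in VP16 and 1 in SRDX, and no member was called higher. Of all genes, 12.6% were lower in OX, 11.8% in VP16 and 2.24% in SRDX. TUB8 measured 142, 146 and 142 CPM in OX and 109.9, 102 and 106 in VP16, against 195, 186 and 170.3 in hy5. TUB5 measured 197, 179 and 185 CPM in OX and 180.3, 177 and 169 in VP16, against 252, 282 and 284 in hy5. For both genes OX and VP16 lay wholly below hy5. The log2 difference of TUB8 was -0.35 ± 0.091 in OX and -0.79 ± 0.091 in VP16, and that of TUB5 -0.54 ± 0.081 and -0.63 ± 0.081 in the same lines (SE, adjusted p = 0.00446, 6.82e-08, 6.06e-06 and 3.78e-07). In SRDX, TUB8 differed from hy5 by 0.14 ± 0.10 and TUB5 by -0.20 ± 0.090, neither of them called. TUB9 differed by -0.26 ± 0.072 in OX and -0.34 ± 0.072 in VP16, and TUB4 by -0.26 ± 0.088 in VP16 (adjusted p = 0.00828, 0.000546 and 0.0294). TUB9 in OX lost its call without hy5 light replicate 2 (0.0637), and TUB4 in VP16 without hy5 light replicate 2 or 3 or VP16 light replicate 1 or 2 (0.135, 0.0624, 0.0545 and 0.118) and with the spread taken from the compared groups alone (adjusted p = 0.0508). TUB6 in VP16 differed by -0.19 ± 0.079, was not called (adjusted p = 0.074), and was called without hy5 light replicate 1 (0.0464) and in DESeq2 (adjusted p = 0.0234). These comparisons share their hy5 libraries.

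TUB2, TUB3, TUB6 and TUB7 were not called in any line against hy5 in the dark or at 1.5 h. For TUB2 the 95% interval of the difference from hy5 in the dark was -0.12 to 0.21 in OX, -0.27 to 0.065 in VP16 and -0.41 to -0.034 in SRDX. The sum of TUB2 and TUB3 was 789 ± 77.9 CPM in OX, 709 ± 26.1 in VP16 and 659.6 ± 14.5 in SRDX, against 767 ± 32.8 in hy5, in the dark (SD, n = 3, and n = 2 for SRDX). It was not called there either.

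TUB1, TUB8 and TUB9 were lower in VP16 than in SRDX both in the dark and at 1.5 h of light. In the dark, 3 members were lower and 1 was higher in VP16, where 10.3% of all genes were lower and 9.73% higher. TUB1 differed by -0.69 ± 0.081, TUB9 by -0.43 ± 0.080, TUB8 by -0.28 ± 0.10 and TUB7 by 0.28 ± 0.10, VP16 minus SRDX (SE, adjusted p = 1.47e-07, 0.00021, 0.048 and 0.0476). The calls of TUB8 and TUB7 depended on which libraries were kept. TUB8 lost its call without dark VP16 replicate 2 or 3 (0.0864 and 0.145) and was -0.073 without dark SRDX replicate 2 (0.754). TUB7 lost its call without dark VP16 replicate 1 or 3 (0.126 and 0.0953) or either dark SRDX library (0.0503 and 0.357). Neither was called with the spread taken from the compared groups alone (adjusted p = 0.183 for TUB8 and 0.0956 for TUB7). TUB8 was also not called with median-of-ratios scaling (0.0657) or with the replicate number as a block (0.0661), nor TUB7 in edgeR (adjusted p = 0.0639). At 1.5 h of light, 4 members were lower in VP16, where 14.5% of all genes were. TUB1 differed by -0.94 ± 0.081, TUB8 by -0.93 ± 0.10, TUB5 by -0.43 ± 0.090 and TUB9 by -0.34 ± 0.080 (adjusted p = 1.39e-10, 1.87e-08, 0.000365 and 0.00159). TUB8 at 1.5 h measured 109.9, 102 and 106 CPM in VP16, against 205 and 200.0 in SRDX.

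Of 9 markers of root hairs and endodermis, 6 were higher and 2 lower in VP16 than in hy5, both in the dark and at 1.5 h, and 6 were higher in VP16 than in SRDX at both. Of all genes, 11.1% were higher and 11.1% lower in VP16 than in hy5 in the dark, and 13.1% and 11.8% at 1.5 h, and 9.73% were higher in VP16 than in SRDX in the dark and 15.4% at 1.5 h. In OX none of the 9 was called against hy5 in the dark, where 6.72% of all genes were higher and 6.76% lower. At 1.5 h, 2 of the 9 were lower in OX, where 12.6% of all genes were. The 6 that were higher are root hair genes, among them EXPA7, a root hair expansin, with 3.05 CPM in dark VP16, against 0.525 in dark hy5. The summed level of the 9, most of which comes from the endodermal genes CASP1, CASP2 and SCR, was 238 to 307 CPM in dark OX, 224 to 283 in dark VP16 and 185 to 239 in dark SRDX, against 322 to 339 in dark hy5 and 231 to 320.4 in dark Col. At 1.5 h the sum was 223 to 317 CPM in OX, 276 to 313 in VP16 and 257 to 283 in SRDX, against 345 to 353 in hy5 and 330.4 to 345 in Col. EXPA18 was at 0 in all dark OX and all 1.5 h SRDX libraries, EXPA7, SHV2 and RHS19 were at 0 in at least 1 OX or SRDX library, and no marker was at 0 in a VP16 or hy5 library. Of the 3 etiolated-shoot markers, 2 were lower in VP16 than in hy5 in the dark, and 2 in OX and 1 in VP16 at 1.5 h, beside the shares of all genes lower given above, with dark sums of 1180.3 to 1708 CPM in OX and 1563 to 1901 in VP16, against 2035 to 2152 in hy5. The part of the markers of both lists in the TUB1, TUB5, TUB8 and TUB9 differences was not tested.

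Between hy5 and Col in the dark, no member was called, where 2.02% of all genes were, none had an unadjusted p below 0.05, and edgeR and DESeq2 also called none. The 95% interval of the difference was -0.25 to 0.050 for TUB1 and -0.23 to 0.14 for TUB8. At 1.5 h of light, 1 member was lower and 1 higher in hy5, where 5.11% of all genes were lower and 4.05% higher. TUB7 was lower in hy5, with 135, 139.8 and 133 CPM in hy5, against 194, 193 and 181 in Col, a log2 difference of -0.48 ± 0.091 (SE, adjusted p = 0.00038). TUB8 was higher in hy5 by 0.37 ± 0.091 (adjusted p = 0.00596), with 195, 186 and 170.3 CPM in hy5, against 157, 135 and 133 in Col. In neither gene did the libraries overlap. In the dark, 2 members did not overlap between hy5 and Col either, and none was called. How many of all genes did not overlap was not counted, so this count says nothing particular to the family. For TUB1, which was lower in all 3 lines, hy5 and Col at 1.5 h differed by 0.045 ± 0.072 (95% interval -0.10 to 0.19).

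Summed over the 9 genes, beta-tubulin transcript was lower at 1.5 h of light than in the dark in each genotype, with no overlap of libraries. The sum was 2206 ± 51.3 CPM in OX at 1.5 h, against 3267 ± 68.8 in the dark, and 1963 ± 65.4 in VP16, against 2849 ± 34.8 (SD, n = 3 each). In hy5 it was 2469 ± 115 CPM at 1.5 h, against 3303 ± 131 in the dark, and in Col 2400.2 ± 65.3, against 3387 ± 105. In SRDX the sum was 2962 ± 112 CPM in darkness, 2245 ± 7.95 after 1.5 h of light and 2617 ± 46.6 after 4 h (SD, n = 2 each), so that the 4 h libraries lay between the others. In hy5 at 4 h it was 2286 ± 141 CPM (n = 2), overlapping with 1.5 h. The make-up of the sum also differed between groups. TUB7 made up 7.90% ± 0.470 of it in Col at 1.5 h, against 3.45% ± 0.268 in the dark, and TUB1 made up 3.86% ± 0.134 in dark VP16, against 7.08% ± 0.471 in dark hy5 (SD, n = 3 each). TUB3 took 52.2 to 54.1% of the TUB2 and TUB3 sum in the 14 dark libraries, 54.2 to 56.9% in the 14 libraries at 1.5 h and 57.5 to 60.8% in the 4 libraries at 4 h, so that the ranges did not overlap.

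**Figure D5:**
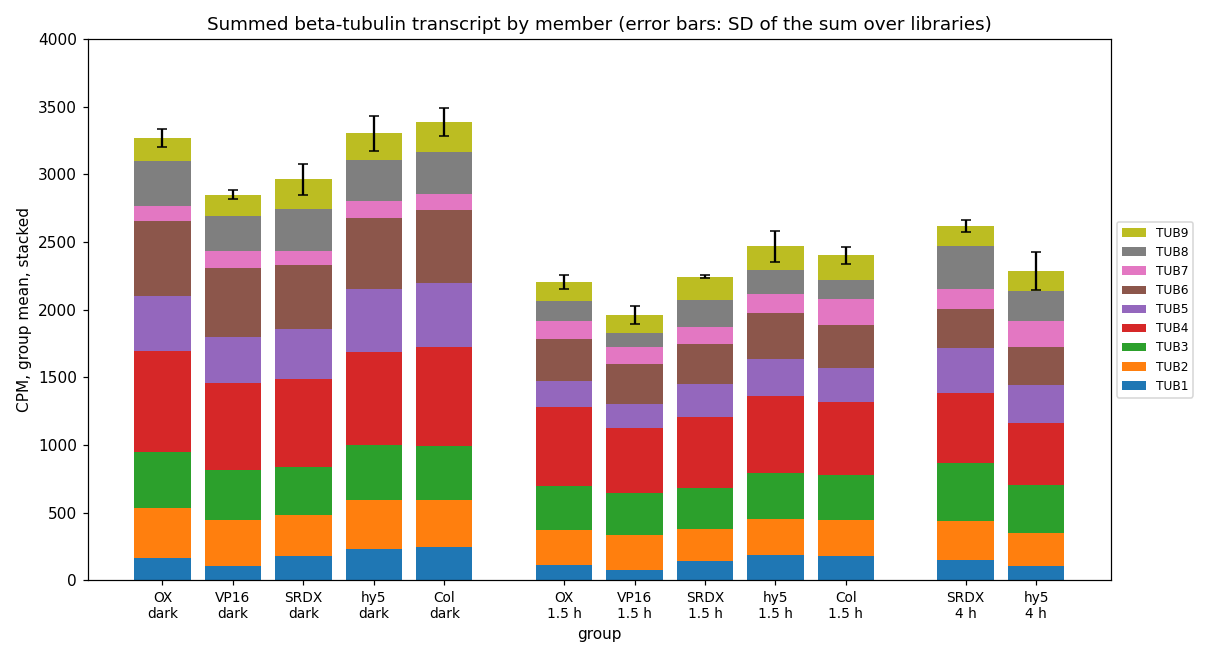
Summed CPM of the 9 beta-tubulins (vertical axis, from 0) in 12 groups (horizontal axis), stacked by member from group means, with error bars for the SD of the sum over libraries. The sum is highest in dark Col, at 3387 CPM, and lowest in VP16 at 1.5 h, at 1963.

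Of the 6 alpha-tubulins, the partners of beta-tubulin in the dimer, 2 fell and none rose at 1.5 h of light in OX, 2 fell and 1 rose in VP16 and in Col, and 1 fell and 1 rose in SRDX and in hy5. Of all genes, 12.7 to 22.6% fell and 13.9 to 23.6% rose in these comparisons, ranges that 1 of 6 lies within. TUA5 fell in all 5 genotypes, with log2 differences between -0.61 in VP16 and -0.37 in hy5, and TUA3 fell in OX (-0.49 ± 0.084), VP16 (-0.57 ± 0.084) and Col (-0.49 ± 0.084). TUA1, which is known from pollen, rose in VP16 (0.67 ± 0.075), SRDX (0.47 ± 0.092), hy5 (0.52 ± 0.075) and Col (0.31 ± 0.075), and averaged 58.8 ± 2.69 CPM in Col at 1.5 h, against 47.1 ± 1.95 in the dark (SD, n = 3 each). TUA2, TUA4 and TUA6 were not called in any genotype at 1.5 h. In hy5 at 4 h, 4 of the 6 were lower than in the dark and 1 was higher, with TUA2 at -0.56 ± 0.11, TUA4 at -0.52 ± 0.10 and TUA6 at -0.50 ± 0.13, where 26.3% of all genes were lower and 24.5% higher. In SRDX at 4 h none was lower and 1 was higher, where 23.6% of all genes were lower and 23.1% higher. Against hy5 at 1.5 h, VP16 had 5 of the 6 lower, with TUA3 at -0.68 ± 0.084, and TUA1 higher, at 0.43 ± 0.075, where 11.8% of all genes were lower and 13.1% higher. SRDX had 1 higher and none lower, where 4.26% of all genes were higher, and OX had 1 lower and none higher, where 12.6% were lower. The 4 h response was more positive in SRDX than in hy5 for TUA2, TUA4 and TUA6, with differences of 0.56 ± 0.16, 0.62 ± 0.15 and 0.78 ± 0.19, and less positive for TUA1, with -0.44 ± 0.12 (SE, adjusted p = 0.0268, 0.00938, 0.00801 and 0.022), where 4.34% of all genes had a more positive and 5.74% a more negative response in SRDX. TUA2 and TUA4 and likewise TUA3 and TUA5 are close in sequence, so their separate values are uncertain.

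Other genes of the microtubule system were counted in the same way. Of 19 microtubule-associated proteins, 8 were lower and none higher at 1.5 h of light than in the dark in OX, 9 and none in VP16, 5 and 1 in SRDX, 6 and none in hy5, and 6 and 2 in Col. Of all genes, 22.6% were lower in OX, 22.1% in VP16, 12.7% in SRDX, 15.7% in hy5 and 17.9% in Col. The median log2 difference of the 19 was -0.20 in OX, -0.24 in VP16, -0.23 in SRDX, -0.17 in hy5 and -0.089 in Col. In Col, MAP65-1, which bundles microtubules, differed by -0.35 ± 0.097, and TOR1, which orders the cortical array, by -0.32 ± 0.092, while TON1A, of the complex that recruits microtubule organisers to the cortex, rose by 0.48 ± 0.095 (SE, adjusted p = 0.00522, 0.00586 and 0.000151). In dark VP16 relative to dark hy5, MAP18, which destabilises microtubules, differed by -1.03 ± 0.19 and WDL3 by -0.80 ± 0.14. ERH3, the katanin subunit that severs microtubules, was higher there by 0.30 ± 0.070. Of all genes, 11.1% were higher and 11.1% lower in that comparison. The count over the 19 is not given for it, so these genes do not describe the list. Of 10 genes for tubulin folding and microtubule nucleation, 2 were lower and 1 higher at 1.5 h in OX, 3 were lower in VP16, 2 in SRDX, 1 in hy5 and 2 in Col, which is near those shares. Among them NEDD1, which brings the nucleating gamma-tubulin complex to its sites, differed by -0.63 ± 0.11 in OX and -0.54 ± 0.11 in Col. Of 8 genes for cellulose synthesis of the primary wall, whose complexes run along microtubules, 2 were higher and 2 lower at 1.5 h in OX, 2 and 3 in VP16, 1 and none in SRDX, 2 and none in hy5, and 2 and 1 in Col. Of all genes, 23.6% were higher in OX, 22.4% in VP16, 13.9% in SRDX, 16.4% in hy5 and 18.0% in Col. CESA5, a cellulose synthase subunit, rose at 1.5 h by 1.71 ± 0.12 in OX and 1.46 ± 0.12 in Col, whereas CSI1, which links the complexes to microtubules, differed by -0.54 ± 0.13 in OX and -0.33 ± 0.13 in Col, and KOR1, an endoglucanase, by -0.35 ± 0.094 in OX (adjusted p = 0.000976, 0.0441 and 0.0028 for these lower values). At 4 h, 3 of the 8 were higher and 2 lower than in the dark in SRDX and 5 were higher in hy5, beside the shares over all genes given for 4 h. CESA5 was above the dark level by 1.00 ± 0.14 in SRDX and 1.46 ± 0.13 in hy5, and CESA2 by 0.68 ± 0.13 and 1.08 ± 0.12, while CESA1 differed by -0.32 ± 0.11 in SRDX and 0.32 ± 0.097 in hy5 (adjusted p = 0.0141 and 0.00743). The summed level of the 8 was 2958 to 3124 CPM in OX at 1.5 h, against 2967 to 3309 in the dark, and 2718 to 2873 in SRDX at 4 h, against 2893 to 3145 in the dark.

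Among the 15008 genes with a mean of at least 5 CPM, those whose 12 group means followed a beta-tubulin most closely were looked up for the 3 members with the widest range. For TUB1 they were AT4G32460, AT5G15070 and AT3G48940, with Pearson r of 0.962, 0.952 and 0.950 over the 12 group means of log2(CPM + 1). For TUB8 they were TET3, a tetraspanin, AT2G04500 and AT5G08350, with r of 0.976, 0.974 and 0.972. For TUB5 they were AT1G04910, AT5G24580 and AT1G27210, with r of 0.978, 0.976 and 0.971. The means share libraries and light steps, and these values are a description. Within the family, the closest pair was TUB4 and TUB6 (r = 0.946), followed by TUB2 and TUB6 (0.934), and TUB7 had a negative r with each of the other 8 members, from -0.672 with TUB4 to -0.177 with TUB3.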

How the data were processed

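Poly(A) RNA of whole seedlings was sequenced with a strand-preserving kit, per the labels' protocols. Per the submitters' processing notes, the tools include HTSeq 0.6.0 and edgeR 3.16.5 beside TopHat2 2.0.11, Bowtie2 2.2.2.0 and CASAVA 1.8.2, with SAMtools 0.1.19.0 and the TAIR10 build; read length, strand setting and the handling of reads that fit several genes are not given in the sources used here. The deposited table holds a signal per gene and library that the authors scaled per library (CPM), with column sums of 925942 to 1066829. The authors' deposited table of log2 fold changes over hy5 was used for comparison only. No column was left without a sample.

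CPM values are whole multiples of 1 read (100% within 0.1 reads), which gave 7499581 to 21420680 reads per library (median 14457454); 3 reads correspond to at most 0.394 CPM. The 28 replicate pairs differed by 3.18 to 20.3 times the counting variance, so no library was counted as a duplicate. limma 3.58.1 in R 4.3.3 (linear model, empirical Bayes with trend) was fitted to log2(CPM + 1) of all 32 libraries with 12 group means, after a filter of at least 1 CPM in at least 2 libraries, which removed no gene. Fold changes on this scale understate changes of low genes. The test is two-sided, p-values were adjusted by Benjamini and Hochberg over the 19685 genes of each of 25 comparisons, and calls have adjusted p below 0.05. Differences are given as the first-named group minus the second. The fitting code was tested on simulated data. Alternatives were a pseudocount of 0.25 CPM, no filter, a mean of at least 5 CPM, scaling by median of ratios, a spread from the compared groups alone, count tests of the recovered reads (edgeR 4.0.16 and DESeq2 1.42.0), a block for the replicate number, TUB2 and TUB3 summed, and each library left out. For hy5 and Col in the dark, same-numbered libraries deviated together in all 3 pairs (r of 0.172 to 0.306). All r were also above 0.1 for hy5 at 4 h against 1.5 h (0.111 to 0.145) and for SRDX against hy5 at 4 h (0.121). In the other comparisons of 2 groups at least 1 pair was not above 0.1, among them OX at 1.5 h against dark (0.0942 to 0.363). The labels do not say what the numbers share.

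Gene models and sequences are from RefSeq (TAIR10.1), where 19582 identifiers were found and 103 were not, and were read with Biopython 1.88. Named genes were the 9 beta-tubulins, the alpha-tubulins, of other lists up to 4 called genes (lowest adjusted p first) in a comparison described, and the 3 genes most alike for the 3 members with the widest range. Members and lists were chosen with earlier results of these data known.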

Additional observations from a re-analysis of the deposited data

Results flagged for a closer look

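At 1.5 h of light, 3 responses of beta-tubulins differed between genotypes in the test of the difference itself. TUB8 had a more negative response in OX than in hy5 (-0.51 on the log2 scale) and in VP16 than in hy5 (-0.55), and TUB7 had a smaller response in hy5 than in Col (-0.51). At 4 h of light, the response was more positive in SRDX than in hy5 for TUB1 (0.91), TUB5 (0.59), TUB8 (0.50), TUB3 (0.48) and TUB2 (0.47).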

How the results depend on the processing

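Of 225 values, each a log2 difference of 1 beta-tubulin in 1 comparison, 102 were called. Of these, 73 were called under every alternative and with every library left out, and none of the 102 changed sign. With the spread taken from the compared groups alone, 22 calls were lost and 1 was gained. Median-of-ratios scaling lost 4 calls, edgeR on the recovered reads lost 2, and DESeq2 lost none and gained 5. The other pseudocount and no filter changed no call. Light comparisons held 64 calls of 81 (53 to 65 under the alternatives that keep the 9 members apart, 60 to 64 with a library left out), and genotype comparisons 30 of 99 (24 to 32, and 26 to 31). Differences between light responses held 8 calls of 45, against 4 with the compared groups alone and 10 in DESeq2. With a library left out there were 5 to 9 such calls, with 5 when dark hy5 replicate 3 or 4 h SRDX replicate 1 was left out. With the replicate number as a block the 3 counts were 64, 29 and 8, and the call lost was that of TUB8 in dark VP16 against dark SRDX (adjusted p = 0.0661 in limma). Same-numbered libraries of VP16 and SRDX in the dark deviated in opposite directions (r of -0.272 to -0.251 over 2 pairs). The cause of these changes was not tested, except that compared groups alone leave fewer libraries to estimate the spread. Comparisons with SRDX, or with hy5 at 4 h, have only 2 libraries in at least 1 group. How far reads shared by TUB2 and TUB3 affect either level was not tested.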
